A study of Mus musculus with 151 samples.

Results

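The breakdown of the branched-chain amino acids leucine, isoleucine and valine was followed through 8 genes, Bcat1, Bcat2, Bckdha, Bckdhb, Dbt, Bckdk, Ppm1k and Ivd, in mice conceived by mating (Natural) or by in vitro fertilization (IVF). The 8 genes are the core of the pathway among 35976 gene names in each of the 7 count tables. They were taken by name from each table. Bcat2 and Dbt were selected on their counts in IVF against Natural oocytes, so in every comparison that holds oocytes those 2 genes are described with no test. Natural mice came from CF-1 females mated with B6/SJL males in their own estrous cycle. IVF mice came from the same cross, with eggs of CF-1 females superovulated with eCG and hCG, insemination and culture to the blastocyst in KSOM medium with amino acids at 5% oxygen, and transfer to recipients mated with vasectomized CD-1 males. The adult animals of both groups were delivered by cesarean section and raised by CF-1 foster dams, and those that gave oocytes and cumulus cells were themselves superovulated. All samples were female.

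Whole ovaries were sequenced at E18.5 (4 Natural and 6 IVF), at 12 weeks (4 and 5) and at 39 weeks (5 and 5). Primordial germ cells (PGCs), the fetal precursors of oocytes, were sequenced at E13.5 (4 and 5 libraries), and cumulus cells, the granulosa cells that surround the ovulated egg, at 12 weeks (5 and 5), with 100 cells in each cumulus library. Single ovulated oocytes were sequenced at 12 weeks (36 and 40) and at 39 weeks (9 and 10). The names of the 12-week oocyte libraries fall into 5 sets in each group, with 5 to 8 oocytes in a set, and the counts of a set were summed and taken as 1 sample. They are called donor sets here, though the labels do not state that a set is 1 animal. No animal is named for the 39-week oocytes, so each group was summed and counted as 1 sample, without a test. The methods place the collection of IVF fetuses at E19.5 in 1 place and at E18.5 in another, so an age difference between the fetal groups cannot be told apart from the mode of conception.

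Bcat1, in the cytosol, and Bcat2, in mitochondria, move the amino group from branched-chain amino acids to 2-oxoglutarate. The resulting 2-oxoacids are broken down by the branched-chain 2-oxoacid dehydrogenase complex, made of a decarboxylase with subunits encoded by Bckdha and Bckdhb, a lipoate-bearing core encoded by Dbt, and a dehydrogenase encoded by Dld that sister complexes share. The kinase Bckdk phosphorylates and switches off the complex, the phosphatase Ppm1k switches it on, and Ivd, isovaleryl-CoA dehydrogenase, takes the next step of the leucine branch. In the mouse genome (GRCm38, GENCODE vM21) all 8 are protein-coding genes. Bcat2 lies on chr7:45570153-45589711 on the plus strand, and Dbt on chr3:116513070-116549981 on the plus strand. Bckdha (chr7:25629946-25658981, minus) shares 1171 of its 1899 exon bases with B3gnt8 on the opposite strand, Bcat2 shares 622 of 3900 with 0610005C13Rik, and Bcat1 (chr6:144993835-145076184, minus) shares 337 of 9322 with Gm26666. The strand setting of the counting is not given in the sources used here, so reads in these shared bases cannot be assigned to 1 gene.

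RefSeq (GRCm38.p6) lists 2 transcription starts for Bcat2. The 250 bases before each start are shown because the level of this transcript split the oocytes described next, with each CG dinucleotide, the site of DNA methylation in mammals, in capitals. Both windows are on the plus strand, the first at chr7:45569903-45570152 and the second at chr7:45571029-45571278.
Bcat2 first start: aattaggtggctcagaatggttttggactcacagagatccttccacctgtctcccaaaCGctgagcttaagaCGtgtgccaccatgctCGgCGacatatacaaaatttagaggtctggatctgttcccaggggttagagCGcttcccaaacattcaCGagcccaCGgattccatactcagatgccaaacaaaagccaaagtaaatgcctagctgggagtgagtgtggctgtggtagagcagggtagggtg
Bcat2 second start: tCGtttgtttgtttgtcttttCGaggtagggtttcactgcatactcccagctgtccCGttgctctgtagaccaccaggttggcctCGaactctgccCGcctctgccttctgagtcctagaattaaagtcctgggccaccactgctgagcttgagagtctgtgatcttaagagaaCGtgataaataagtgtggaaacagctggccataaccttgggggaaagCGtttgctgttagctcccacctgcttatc
Each window holds 7 CG sites, and 57.0% of 32851 mouse promoter windows of this length hold as many or fewer. Methylation was not analysed here.

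In 12-week oocytes from IVF females, Bcat2 was low in 4 of 5 donor sets and Dbt was high in 4 of 5, and the exceptional set was not the same for the 2 genes. Levels are counts per 1e6 counts of a library, scaled by edgeR's TMM factors (CPM), unless stated. Bcat2 stood at 28.1, 30.8, 24.2, 24.0 and 19.4 CPM in the Natural sets 35_1, 35_3, 92_3, 92_4 and 92_5. In the IVF sets 126_3, 126_4, 127_2 and 127_3 it stood at 1.85, 2.04, 1.93 and 1.07 CPM, but at 23.7 CPM in set 126_2. The 4 low sets lay 12.4-fold to 23.7-fold below the Natural mean of 25.3 ± 4.38 CPM (SD, n = 5), while set 126_2 lay inside the Natural range. The mean of all 5 IVF sets, 6.12 ± 9.84 CPM, therefore describes none of them, and without 126_2 it was 1.72 ± 0.444 CPM (SD, n = 4). The oocytes of set 126_2 are labelled IVF, but a cumulus library that carries the number 126_2 is labelled Natural. The labels do not settle this conflict. The Bcat2 levels rest on 443 to 1468 counts in a Natural set and on 47 to 95 in a low IVF set. Since 78.4% of low counts in the 12-week oocytes are even numbers, counts are not independent fragments.

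Dbt stood at 7.50, 6.13, 6.43, 7.31 and 5.86 CPM in the Natural sets, a narrow range around 6.65 ± 0.724 CPM (SD, n = 5). In the IVF sets 126_2, 126_3 and 127_2 it stood at 125, 111 and 118 CPM, and in 126_4 at 56.9 CPM. These 4 sets were 8.56-fold to 18.8-fold above the Natural mean. The fifth IVF set, 127_3, held 9.08 CPM, just above the highest Natural set and 1.37-fold above the Natural mean. Every IVF set was thus above every Natural set in Dbt, as were 0.845% of all genes tested, whereas for Bcat2 the groups overlapped through set 126_2. Set 126_2 had a Natural-like Bcat2 level beside a high Dbt level, and set 127_3 had a low Bcat2 level beside a near-Natural Dbt level.

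In most sets the level was shared by the single oocytes of the set. Per oocyte, in plain CPM without that scaling, Bcat2 ran from 9.73 over a median of 23.2 to 89.3 in the 36 Natural oocytes. Among the 40 IVF oocytes, 31 were below every Natural oocyte, and the other 9 were all 8 of set 126_2 and 1 of set 127_2. Bcat2 had no count in 3 IVF oocytes, where 3 counts would have been 0.606 to 0.996 CPM.

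Dbt ran from 0 over a median of 6.43 to 15.7 CPM in single Natural oocytes. Of the 40 IVF oocytes, 26 were above every Natural oocyte, namely 8 of 8 in sets 126_2 and 126_3, 6 of 8 in 127_2, 4 of 8 in 126_4 and 0 of 8 in 127_3. In set 126_2 the lowest oocyte held 75.8 CPM and the highest 169 CPM of Dbt, against 6.60 and 13.2 CPM in set 127_3. Oocytes of a set share a name and may share an animal, so their number is not counted as replicates.

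**Figure D1:**
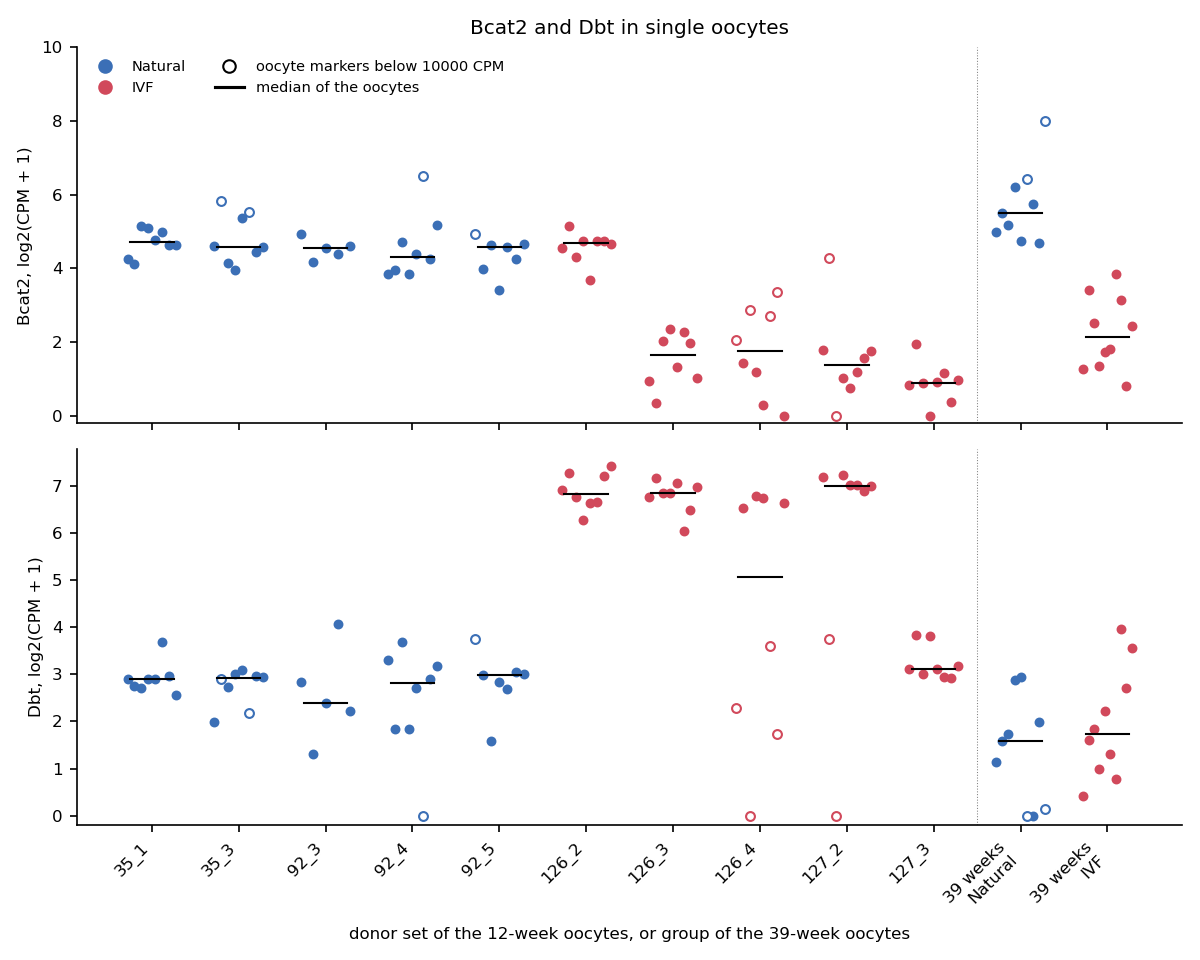
Bcat2 (top) and Dbt (bottom) in every single oocyte, as log2(CPM + 1) of plain CPM, by donor set at 12 weeks and by group at 39 weeks. Blue points are Natural and red points IVF oocytes, black bars are medians, and open points are oocytes with oocyte markers below 10000 CPM. Bcat2 is low in 4 of 5 IVF sets and Dbt high in 4 of 5, with 126_2 and 127_3 as the exceptions.

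A few oocytes stood apart from the rest in the sum of their oocyte markers. The 8 oocyte markers (the zona pellucida genes Zp1 to Zp3, Gdf9, Bmp15, Ooep, Nlrp5 and Oosp1) summed to less than 10000 CPM in 4 of 36 Natural and 6 of 40 IVF oocytes at 12 weeks, 4 of the latter in set 126_4 and 2 in 127_2. Gdf9, a growth factor made by the oocyte, was at 109 to 629 CPM in these 10 oocytes and at 11063 CPM or more in all other 12-week oocytes. The cut thus follows Gdf9 in large part, and whether it measures oocyte identity was not tested. In set 127_2, oocytes under the cut had sums of 7902 to 8051 CPM with Gdf9 at 558 to 629 CPM. Those above it had sums of 26999 to 35835 CPM with Gdf9 at 19503 to 25813 CPM. In Natural set 35_3, oocytes under the cut had sums of 1741 to 3051 CPM with Gdf9 at 109 to 265 CPM. Those above it in that set had sums of 22617 to 24909 CPM with Gdf9 at 15851 to 18352 CPM. There the other markers together were lower too. Dbt was at 0 to 12.4 CPM in all 6 IVF oocytes under the cut, with 2 of them at no count, where 3 counts would have been 0.996 and 1.90 CPM.

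Left without these 10 oocytes, in a step chosen after the values were seen, every oocyte of sets 126_2, 126_3, 126_4 and 127_2 was above every Natural oocyte in Dbt, 26 of 26, and 0 of 8 in set 127_3. Set 126_4 then stood at 101 CPM of Dbt, and the 4 high sets at 101 to 132 CPM. For Bcat2, all 26 oocytes of the 4 low sets were then below every Natural oocyte, whose range became 9.73 to 39.9 CPM, and 0 of 8 in set 126_2 were. The Bcat2 level of set 126_4 dropped to 0.770 CPM, which is 30.0-fold below the Natural mean of that subset in place of 12.4-fold. Granulosa markers, which would mark adhering cumulus cells, summed to 23.8 to 121 CPM per Natural and 21.9 to 246 CPM per IVF oocyte. Donor, collection and sequencing run cannot be told apart within a set.

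The genes next to Bcat2 and Dbt did not show such a split. Within 150 kb on each side, 12 genes near Bcat2 reached 1 CPM in 12-week oocytes of either group, and their ratios of the IVF to the Natural mean ran from 0.721 to 2.35, the latter for Dhdh, which stayed under 3 CPM. Bcat2 itself varied 28.4-fold between its highest and lowest donor set in plain CPM, its neighbours at most 8.08-fold among those counted in all sets. Only Gys1, muscle glycogen synthase, had groups that did not overlap, with 37.1 to 52.3 CPM in Natural and 53.7 to 65.3 CPM in IVF sets. Over all genes tested, 0.845% had every IVF set above every Natural set, though in TMM-scaled and not in plain CPM. Near Dbt, 6 genes gave ratios from 0.759 to 1.51, none with groups apart, and the largest spread over sets was 2.54-fold, against 22.4-fold for Dbt. These comparisons are descriptions, since the gene at the centre was picked for its values.

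**Figure D2:**
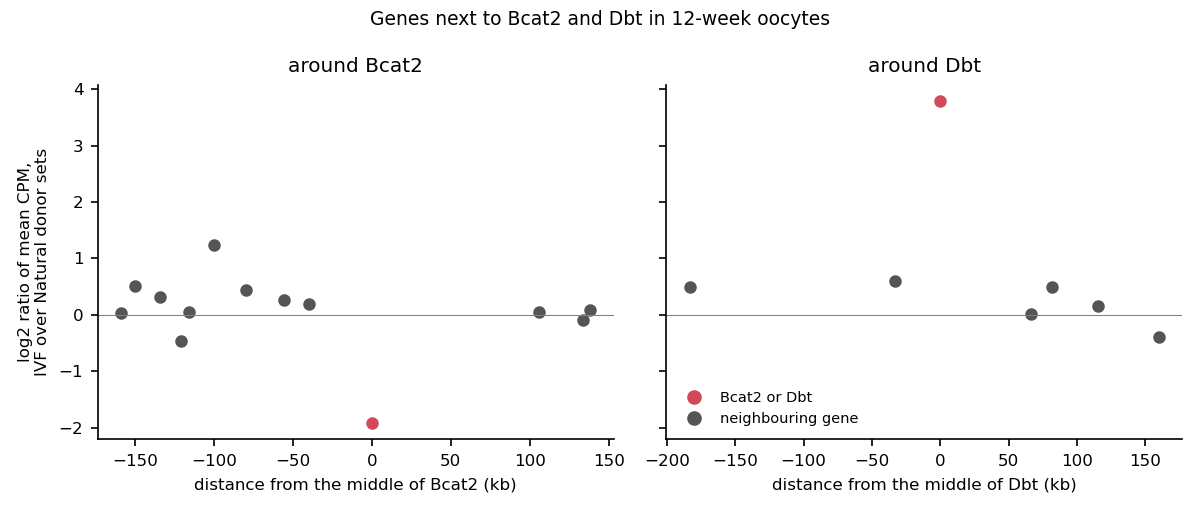
Genes within 150 kb of Bcat2 (left) and Dbt (right) that reached 1 CPM in 12-week oocytes. The x axis is the distance between gene middles in kb, the y axis the log2 ratio of the mean CPM of the IVF sets to that of the Natural sets. The red points, Bcat2 and Dbt, lie apart from the grey points, whose ratios run from 0.721 to 2.35.

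None of the other 6 core genes passed the test in 12-week oocytes, and none of the 30 pathway genes tested did, out of 31 with Bcat2 and Dbt left out. The pathway genes are the core genes together with 6 amino acid carriers, 13 later steps and 6 propionyl-CoA steps. Across all genes the same test (edgeR quasi-likelihood, Benjamini-Hochberg adjusted p below 0.05, 2-sided) called 0.0277%, or 4 genes, and 963 genes had an unadjusted p below 0.05. Ppm1k, the activating phosphatase, was at 1.53 ± 0.479 CPM in Natural and 2.27 ± 0.600 CPM in IVF sets (SD, n = 5 each, log2 fold change 0.57 with a standard error of 0.31, adjusted p = 0.799). Bckdha was at 0.306 to 1.68 CPM in Natural and 0.757 to 2.29 CPM in IVF sets, with overlapping groups. Bcat1, the cytosolic aminotransferase, was at 21.8, 39.7, 25.4, 26.2 and 56.1 CPM in the Natural sets and at 24.4, 24.2, 54.2, 24.3 and 26.0 CPM in the IVF sets. The groups overlapped, and the high IVF set, 126_4, was the one with 4 oocytes of low oocyte markers.

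The balance of the 2 aminotransferases also differed between sets. Per kilobase of exon, Bcat2 made up 64.7 ± 11.6% of the sum of Bcat1 and Bcat2 in Natural sets (45.2% to 75.5%), whereas IVF sets ran from 8.26% to 69.9%. This share is given with no test, since it contains the picked gene.

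In 39-week oocytes Bcat2 was low after IVF, while Dbt was not high. Both genes were picked for their changes in IVF oocytes, so the Bcat2 level here is not independent of that choice. The shares of all genes given beside it are for scale and are no test. Summed over the 9 Natural oocytes Bcat2 stood at 81.1 CPM, with an exact Poisson 95% interval of 79.4 to 82.8 CPM. Over the 10 IVF oocytes it stood at 4.25 CPM (3.96 to 4.57 CPM), 19.1-fold lower. The intervals cover counting error only, and since 71.5% of low counts in this table are even numbers, counts are not independent fragments and the intervals are too narrow. Single Natural oocytes ran from 24.7 over a median of 44.7 to 254 CPM and single IVF oocytes from 0.760 over 3.50 to 13.5 CPM, so the groups did not overlap. This held for 0.203% of all genes in the direction of lower IVF values. The 2 Natural oocytes highest in Bcat2, at 254 and 84.1 CPM, had oocyte markers below 10000 CPM, and without them Bcat2 was 9.29-fold lower in IVF and the groups still did not overlap, as for 0.301% of all genes in that subset.

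Dbt summed to 1.87 CPM (1.62 to 2.15 CPM) in Natural and 5.28 CPM (4.95 to 5.63 CPM) in IVF oocytes, 2.82-fold higher. The medians of single oocytes were 2.00 and 2.33 CPM, the ranges 0 to 6.63 and 0.330 to 14.5 CPM, and the groups overlapped. The summed ratio rests on a few IVF oocytes, of which the highest held 14.5, 10.8 and 5.49 CPM. None reached the 15.7 CPM of the highest single Natural oocyte at 12 weeks, which 26 of the 40 IVF oocytes of that age exceeded. Dbt had no count in 2 Natural oocytes, where 3 counts would have been 0.244 and 0.307 CPM.

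Of the other core genes, Ivd and Bckdk had higher sums in the 39-week IVF oocytes. Ivd, the leucine-branch dehydrogenase, summed to 10.1 CPM in Natural and 34.0 CPM in IVF oocytes, 3.36-fold higher, and single oocytes ran from 2.59 to 27.8 CPM and from 14.8 to 87.0 CPM. The 27.8 CPM belonged to a Natural oocyte with low oocyte markers. Without the 2 such oocytes the ratio was 5.77 and every IVF oocyte was above every Natural one, as for 0.343% of all genes in that subset. Bckdk, the inhibitory kinase, summed to 7.53 and 17.2 CPM, 2.28-fold higher in IVF, and the ratio was 1.64 without the 2 oocytes, both of which held no count of it. Single oocytes ran from 0 to 19.7 CPM in Natural and from 6.36 to 33.9 CPM in IVF. The groups overlapped with and without the 2 oocytes, and without them the medians were 13.0 and 15.3 CPM.

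Bcat1 summed to 50.9 CPM in Natural and 16.4 CPM in IVF oocytes, a ratio of 0.321 that became 0.647 without the 2 oocytes of low markers, which held 166 and 82.1 CPM. Bckdha, Bckdhb and Ppm1k had ratios of 0.778, 0.864 and 0.542, and all 3 turned to above 1 without those oocytes. Over the 29 pathway genes with enough counts, 10 were at least 1.5-fold higher and 9 at least 1.5-fold lower in the sums, 19 in all, against 50.6% of all genes (21.9% higher and 28.8% lower). Without the 2 oocytes of low markers, 10 were higher and 4 lower in the sums, against 36.7% of all genes (22.8% higher and 13.9% lower). By the mean of single oocytes, 10 were higher and 6 lower over all oocytes, and 5 higher and 4 lower without those 2. The share of all genes was not worked out for that measure, so those counts have no background beside them. With each group resting on an unknown number of animals and no replicate check, these differences compare the oocytes sequenced and not the modes of conception. Erythroid markers summed to 115 to 18370 CPM in the Natural and 2.34 to 27005 CPM in the IVF oocytes, and their part in these values was not tested.

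Before and around the oocyte, in PGCs and cumulus cells, Bcat2 and Dbt did not differ between the groups beyond their spread. In PGCs Bcat2 was at 4.17, 0.588, 4.62 and 1.76 CPM in Natural and at 2.80, 1.84, 2.97, 2.91 and 1.23 CPM in IVF libraries (log2 fold change -0.23, standard error 0.65). Dbt was at 6.98 ± 3.53 CPM in Natural (n = 4) and 5.56 ± 1.61 CPM in IVF libraries (n = 5), with a log2 fold change of -0.32 and a standard error of 0.47. The log2 fold changes of the other 6 core genes ran from -0.93 (Ppm1k) to 0.31 (Bckdk), and all 8 had overlapping groups, against 1.18% of all genes with groups that did not overlap. None of the 33 pathway genes was called, with an adjusted p of 1.00 for each core gene, and neither was any gene in the table (0%, while 349 had an unadjusted p below 0.05 and DESeq2 called 0).

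In cumulus cells Bcat2 was at 40.5 ± 3.47 CPM in Natural and 48.8 ± 6.68 CPM in IVF libraries (n = 5 each, log2 fold change 0.27, standard error 0.16, adjusted p = 0.849). Dbt was at 12.8 ± 3.79 and 13.2 ± 2.97 CPM, a log2 fold change of 0.07 with a standard error of 0.23 (adjusted p = 0.986). The IVF cumulus libraries whose names hold the set numbers 126_3, 126_4 and 127_2 had 46.6, 52.0 and 51.0 CPM of Bcat2 and 11.2, 14.0 and 17.8 CPM of Dbt. Neither gene was low or high in them as it was in the oocytes of the sets so named. Of 30 pathway genes tested out of 33, 0 were called, against 0.00973% of all genes, 1 gene. By edgeR 2 pathway genes had an unadjusted p below 0.05, against 626 of the 10280 genes tested. DESeq2 called 1 pathway gene and 30 genes in all. Bckdhb did not pass the expression filter, at 0 to 2.64 CPM in Natural and 0.701 to 3.43 CPM in IVF libraries. A Natural cumulus library is named with the number of the IVF set 126_2. It was kept as labelled, and leaving it out changed no count of pathway genes.

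In fetal ovaries at E18.5, 3 of 33 pathway genes were called, against 5.43% of all genes, a share near the background. Ppm1k rose in IVF and 2 later enzymes fell. These calls were lost under several settings, with 0 pathway genes called when replicate numbers were held as a block and 1 without an expression filter. Over all genes the block left 3 calls in place of 891, so that loss was not particular to the pathway. Ppm1k was at 29.2, 22.4, 19.1 and 22.5 CPM in the Natural ovaries and at 30.4, 40.7, 30.5, 40.0, 28.4 and 38.8 CPM after IVF. Only the highest Natural ovary reached into the IVF range. The log2 fold change was 0.58 with a standard error of 0.16 (edgeR adjusted p = 0.0479). Hsd17b10, a dehydrogenase of the isoleucine branch, fell from 93.1 ± 8.79 to 70.2 ± 5.77 CPM (log2 fold change -0.41, standard error 0.10, adjusted p = 0.0346). Mcee, methylmalonyl-CoA epimerase, fell from 12.5 ± 2.72 to 7.06 ± 1.47 CPM (log2 fold change -0.83, standard error 0.21, adjusted p = 0.0361). Both had all IVF ovaries below all Natural ovaries.

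The share of all genes called at E18.5 was 2.67% for higher and 2.75% for lower values in IVF, and 4.33% of all genes had every IVF ovary below every Natural one. None of 12 genes of the sister dehydrogenase complexes and none of 5 lipoate genes was called. Bckdk, the kinase opposed to Ppm1k, was at 105 ± 15.0 CPM in the Natural ovaries and 85.1 ± 3.62 CPM after IVF (log2 fold change -0.30, standard error 0.10, adjusted p = 0.101), and was called by DESeq2 (adjusted p = 0.0463). The other members did not pass, with log2 fold changes of -0.39 (Bckdhb) to 0.39 (Ivd), and -0.05 for Bcat2 and -0.04 for Dbt. The 3 calls were close to the threshold, and of 10 fits that left out 1 ovary, Ppm1k was called in 2, Hsd17b10 in 3 and Mcee in 5. No pathway gene was called without Natural replicate 2, Natural replicate 4, IVF replicate 2, IVF replicate 4 or IVF replicate 6, and 1 without Natural replicate 3 or IVF replicate 5. Over all genes the 10 fits called from 313 genes (without Natural replicate 2) to 1971 genes (without Natural replicate 1).

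Markers of other cells moved with the fetal groups. The 6 erythroid markers summed to 584 to 1595 CPM in Natural and to 1638 to 4597 CPM in IVF ovaries, all 6 at 1 CPM or more in both, and the 8 oocyte markers to 132 to 467 CPM and to 8.30 to 125 CPM, with Oosp1 under 1 CPM in both groups and Bmp15 in IVF. Their part in the 3 calls was not tested. In whole ovaries, fewer cells of a type and less RNA per cell cannot be told apart.

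In adult ovaries edgeR called no pathway gene at either age. At 12 weeks 0 of 33 passed, against 0.00567% of all genes (1 gene, with 2544 at an unadjusted p below 0.05). DESeq2 called 1 pathway gene, the carrier Slc7a8, and 656 genes in all. Bcat2 was at 114 ± 13.6 CPM in Natural (n = 4) and 110 ± 9.74 CPM in IVF ovaries (n = 5), with a log2 fold change of -0.06 and a standard error of 0.10. Dbt was at 57.0 ± 4.12 and 53.7 ± 10.2 CPM, with a log2 fold change of -0.08 and a standard error of 0.13. Neither gene differed in the ovaries as it did in the oocytes. The 8 oocyte markers summed to 121 to 268 CPM in the Natural ovaries and 155 to 396 CPM after IVF. The 6 oviduct and epithelium markers summed to 3465 to 7915 CPM in Natural and to 101 to 3243 CPM in IVF ovaries at this age, and their part in these values was not tested.

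At 39 weeks 0 of 33 passed, against 0.262% of all genes (45 genes, with 3303 at an unadjusted p below 0.05). Here the 2 aminotransferases had the lowest unadjusted p values among the core genes, and in opposite directions. Bcat1 was at 390, 226, 526, 318 and 497 CPM in the Natural ovaries and at 228, 176, 277, 239 and 330 CPM after IVF. The groups overlapped (log2 fold change -0.65, standard error 0.24, adjusted p = 0.196). Bcat2 was at 86.2, 81.1, 102, 76.0 and 101 CPM in the Natural ovaries and at 106, 168, 125, 120 and 91.4 CPM after IVF. These groups overlapped too, through 1 IVF ovary (log2 fold change 0.45, standard error 0.16, adjusted p = 0.183).

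The share of Bcat2 in the sum of both, per kilobase of exon, was 36.3 ± 5.75% in Natural and 53.7 ± 10.6% in IVF ovaries at 39 weeks. At 12 weeks it was 45.9 ± 5.61% and 47.7 ± 5.58%. Luteal and theca markers summed to 17856 to 26710 CPM in the Natural ovaries and 9310 to 20343 CPM after IVF at 39 weeks, 5 of 5 at 1 CPM or more, and oviduct markers were at 8631 CPM in IVF replicate 1 against at most 232 CPM in any Natural ovary. Their part in the aminotransferase values was not tested. In no leave-one-out fit at this age was a pathway gene called. DESeq2 called 2 pathway genes, Slc7a8 and Auh, and 1229 genes in all.

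**Figure D3:**
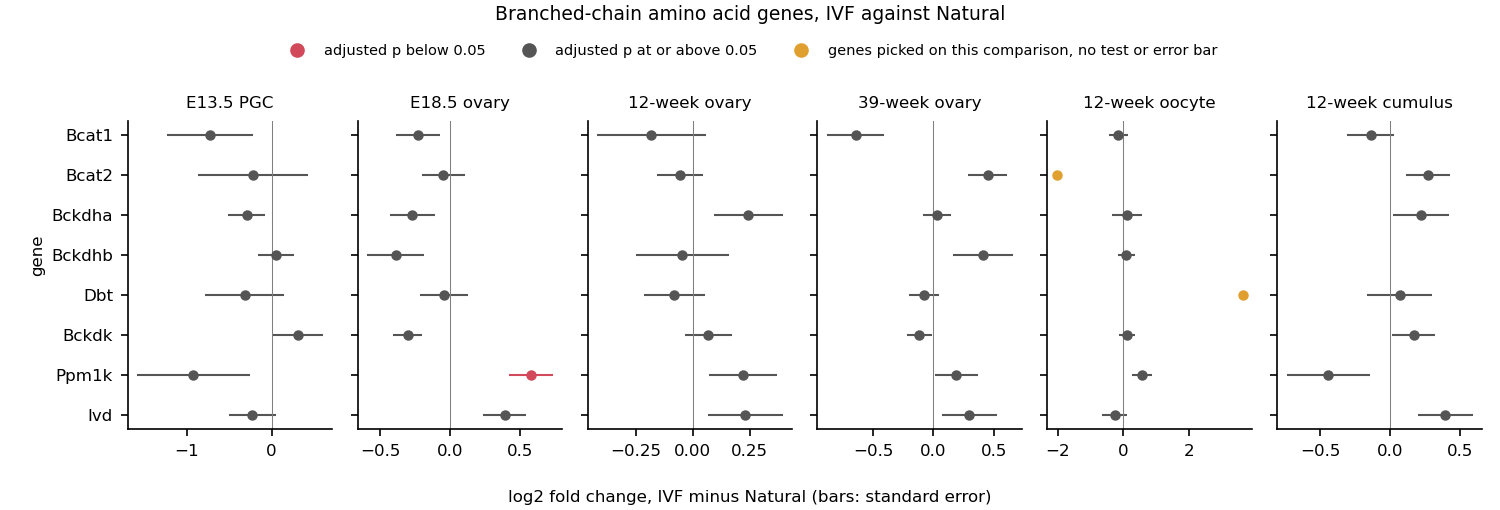
Log2 fold change of IVF minus Natural for the 8 core genes in the 6 tables with replicates, with the standard error as a bar; the x axis differs between panels. Red marks the 1 member called at an adjusted p below 0.05, Ppm1k in E18.5 ovaries, grey the others, and ochre Bcat2 and Dbt in 12-week oocytes, which were picked for these values and have no test. Bckdhb in cumulus cells did not pass the expression filter and is left out.

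Across the tissues the 8 genes had separate profiles. Levels between genes are compared as plain CPM per kilobase of exon, in Natural samples (mean ± SD). Bcat1 was highest in cumulus cells, at 114 ± 16.5, above 41.5 ± 11.1 in 39-week and 35.6 ± 12.5 in 12-week ovaries, which overlapped each other, and was 5.47 or less in germ cells, oocytes and fetal ovary. Bcat2 was highest in 12-week ovaries at 29.0 ± 3.22, followed by 39-week ovaries at 22.8 ± 1.99, and reached 20.8 in the summed 39-week oocytes, 12.0 ± 1.46 in fetal ovary, 10.3 ± 1.42 in cumulus, 6.17 ± 0.851 in 12-week oocytes and 0.649 ± 0.401 in PGCs. The place of the 39-week oocytes in this order depends on the 2 Natural oocytes of low markers. Without them the summed Bcat2 level was 39.5 CPM in place of 81.1 CPM, not divided by exon length. Cumulus and fetal ovary did not differ beyond their spread in this order. Bcat2 thus made up 87.4 ± 1.98% of both aminotransferases in the fetal ovary and 8.32 ± 1.26% in cumulus cells.

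The complex itself was uneven in germ cells and oocytes. Its decarboxylase subunit Bckdha was at 45.5 ± 7.58 CPM per kb in PGCs but 0.601 ± 0.300 in 12-week oocytes, and the partner subunit Bckdhb at 12.0 ± 1.19 and 2.60 ± 0.640. Dbt, the core of the complex, was at 2.00 ± 0.945 in PGCs and 1.90 ± 0.171 in Natural 12-week oocytes, overlapping, and highest in adult ovaries at 17.0 ± 1.18 and 14.9 ± 1.09. The kinase Bckdk was highest in PGCs at 52.7 ± 15.8 and lowest in 12-week oocytes at 1.78 ± 0.226. The phosphatase Ppm1k had a Natural mean under 5 CPM per kb in every tissue, from 0.245 ± 0.0890 in 12-week oocytes to 4.97 ± 0.688 in 12-week ovaries. Ivd was highest in 39-week ovaries at 22.9 ± 2.57. In the IVF sets of 12-week oocytes Dbt ran from 2.59 CPM per kb in set 127_3 to 38.5 CPM per kb, with a mean of 26.4 ± 15.1. The kinds of library differ between ovaries and low-input samples, so tissue and library preparation cannot be told apart here.

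**Figure D4:**
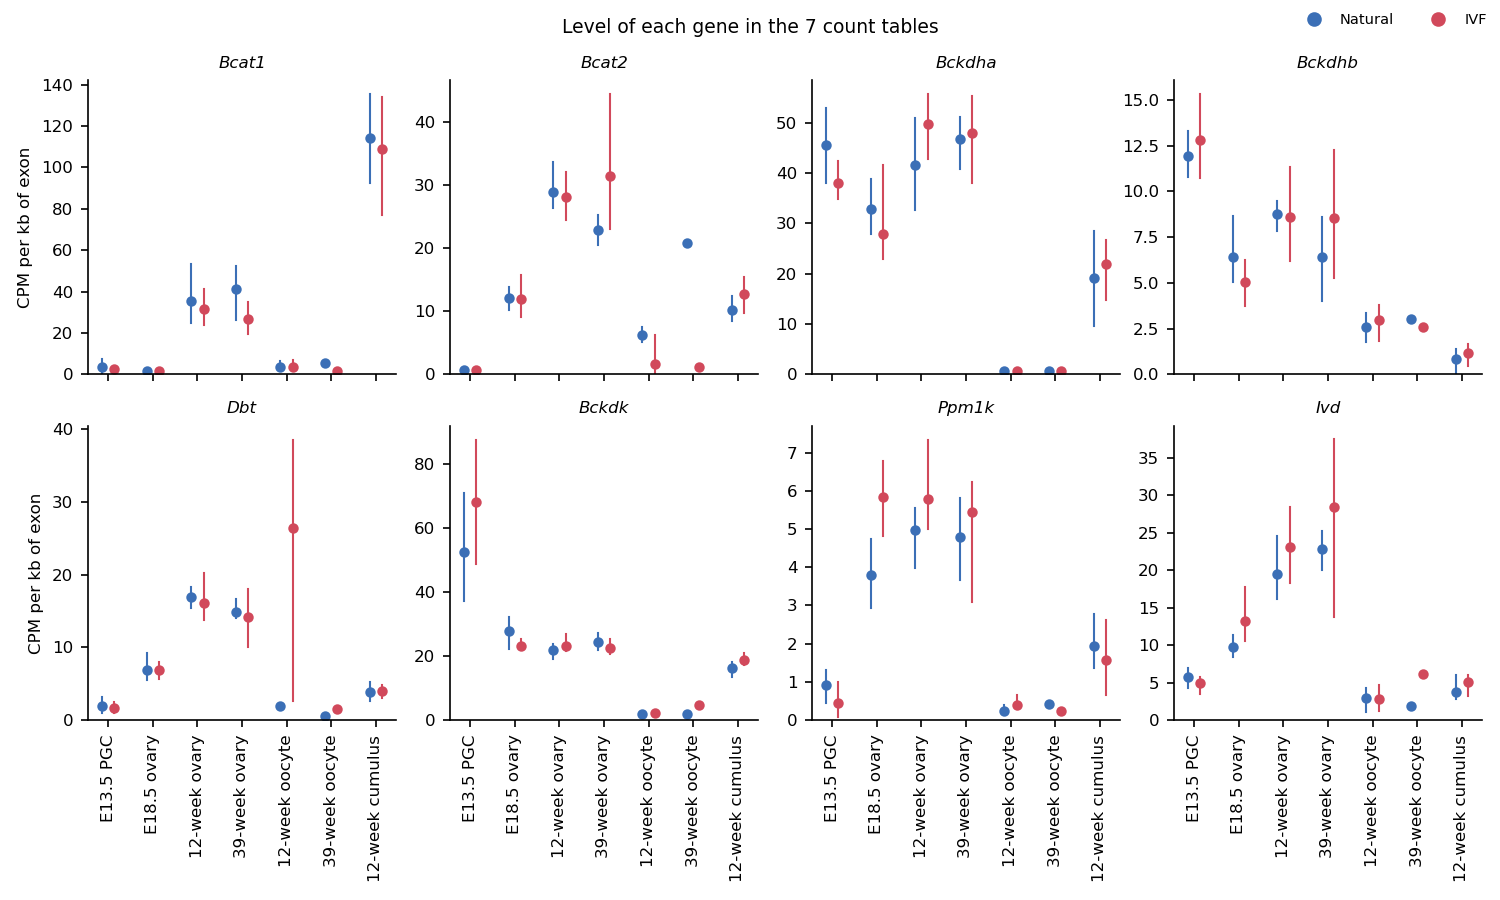
Level of each core gene in plain CPM per kilobase of exon in the 7 tables; points are means and bars run from the lowest to the highest sample or donor set, blue for Natural and red for IVF. The 39-week oocytes have no bar, since each group was summed as 1 sample. Bcat1 peaks in cumulus cells and Bckdk in PGCs, and the IVF sets of 12-week oocytes spread from 2.59 to 38.5 in Dbt.

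From the fetal to the 12-week ovary most of the pathway rose in both groups. In a joint fit of all 29 ovaries, 26 of 33 pathway genes were called in Natural ovaries, 23 up and 3 down, against 49.7% of all genes (25.3% up and 24.3% down), and 28 of 33 in IVF ovaries, 27 up and 1 down, against 59.0% (30.8% up and 28.2% down). Bcat1 rose most among the core genes, from 15.4 ± 1.68 to 332 ± 117 CPM in Natural (log2 fold change 4.43, standard error 0.28, adjusted p = 3.08e-12) and by 4.50 on the log2 scale in IVF. Bcat2 rose by 1.34 and 1.35, Dbt by 1.36 and 1.35, and Ivd by 1.06 and 0.92 on the log2 scale in Natural and IVF. Bckdha rose by 0.41 in Natural (adjusted p = 0.0461) and by 0.94 in IVF, and Bckdhb by 0.88 in IVF, with 0.52 in Natural (adjusted p = 0.0779). Bckdk fell by 0.27 in Natural (adjusted p = 0.0271) and had a log2 fold change of 0.12 in IVF (adjusted p = 0.243). Ppm1k did not pass in either, with 0.44 and 0.11.

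Among the other genes, the carriers led. Slc7a8 (log2 fold change 3.25 in Natural and 3.63 in IVF), Slc3a2, its heavy chain partner (2.31 and 2.48), and in Natural Slc43a2 (1.88), in IVF Pcca (1.94), a subunit of propionyl-CoA carboxylase, rose most. The pyruvate dehydrogenase kinases Pdk1 (-1.65 and -1.49) and Pdk3 (-1.08 and -0.86) and the carrier Slc43a1 (-1.11 and -1.35) fell most. The difference of the IVF effect between 12 weeks and E18.5 was tested directly, and 0 of 33 pathway genes passed, against 0.314% of all genes. In that edgeR test 6 pathway genes had an unadjusted p below 0.05, against 2766 of the 19724 genes tested. For Bckdk, with the lowest p among the core genes, this difference was 0.39 with a standard error of 0.13 (adjusted p = 0.178). In Natural ovaries the 5 luteal and theca markers summed to 17.6 to 48.2 CPM at E18.5 and 10581 to 19034 CPM at 12 weeks, with Lhcgr and Cyp17a1 under 1 CPM at E18.5. The 7 granulosa markers summed to 153 to 307 CPM and 1323 to 2025 CPM, with Fshr and Cyp19a1 under 1 CPM at E18.5, and the 6 fetal germ cell markers to 154 to 599 CPM and 12.5 to 25.5 CPM, with Stra8 under 1 CPM at both ages. In IVF ovaries the luteal sums were 29.5 to 43.6 CPM and 9562 to 23988 CPM. Their part in the rise was not tested. Age and table cannot be told apart, since each age was sequenced in its own table.

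Between 12 and 39 weeks little of the pathway moved. In Natural ovaries 1 of 33 pathway genes was called, Bckdk, which rose by 0.27 on the log2 scale (standard error 0.10, adjusted p = 0.0408), against 21.6% of all genes. In IVF ovaries 0 of 33 were called, against 6.19%. By edgeR 4 of them had an unadjusted p below 0.05, against 4154 of the 19724 genes tested. DESeq2 called 2 of them and 2017 genes in all. Of the sister complexes and lipoate genes, Ogdh, part of 2-oxoglutarate dehydrogenase, rose in both (0.47 and 0.51), and Pdk1 (-0.44) and the lipoyl transferase Lipt2 (-0.72) fell in Natural. The call on Bckdk held in 19 of 29 fits that left out 1 ovary and was lost when the adult ovaries were fitted alone. The IVF effect did not differ between these ages for any of the 33 genes by edgeR, against 2.71% of all genes. For Bcat2 the difference was 0.50 with a standard error of 0.21 (adjusted p = 0.158).

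From PGC to 12-week oocyte core genes went both up and down, as did genes at large, in a joint fit of 9 PGC libraries and 10 donor sets. Of 31 pathway genes tested, 21 were called in Natural, 12 up and 9 down, and 22 in IVF, 13 up and 9 down, against 76.1% of all genes in each (38.9% up and 37.1% down in Natural, 40.8% up and 35.3% down in IVF). Bckdha fell by 4.45 on the log2 scale in Natural and by 4.03 in IVF (adjusted p = 2.31e-09 and 5.19e-09), and Bckdk by 3.10 and 3.29 (adjusted p = 7.57e-09 and 1.94e-09). On the TMM scale of this fit, Bcat1 rose by 1.63 and 2.21, and Ivd by 0.83 and 0.81, the latter close to the threshold (adjusted p = 0.0481 and 0.0398). Bcat2, with no test, stood at 1.45 ± 1.01 CPM in Natural PGCs and 45.1 ± 8.82 CPM in Natural oocytes in this fit, and Dbt at 3.65 ± 1.89 and 11.9 ± 2.07 CPM. In IVF, Bcat2 stood at 1.23 ± 0.407 CPM in PGCs and 1.93 to 46.1 CPM in the oocyte sets, of which 126_2 was the highest, and Dbt at 2.91 ± 0.858 CPM and 16.4 to 243 CPM, of which 127_3 was the lowest. Some directions depend on this scaling. In plain CPM per kb, Natural Bcat1 was at 3.74 in PGCs and 3.53 in oocytes, Ivd at 5.76 and 2.99, and Dbt at 2.00 and 1.90. For IVF, Bcat1 was at 2.38 and 3.53 and Ivd at 4.94 and 2.76. By that measure Ivd was lower in oocytes, and Natural Bcat1 and Dbt did not differ beyond their spread.

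Carriers and later steps also went both ways in the joint fit. Acat1, acetyl-CoA acetyltransferase, rose by 4.41 and 4.38 on the log2 scale in Natural and IVF, Slc7a8 by 5.10 and 4.05, and the mitochondrial branched-chain amino acid carrier Slc25a44 by 3.61 and 3.63. The 3 largest falls had log2 fold changes in Natural and IVF of -5.60 and -5.09 for Slc43a1, of -4.69 and -5.19 for Acad8, isobutyryl-CoA dehydrogenase of the valine branch, and of -4.56 and -4.12 for Mccc2, a subunit of methylcrotonyl-CoA carboxylase in the leucine branch. Median log2 fold changes of the 6 core genes tested were -0.23 in Natural and 0.25 in IVF, against -0.09 and 0.06 over all genes.

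Against the cumulus cells around them, Natural 12-week oocytes were lower in 4 of the 6 core genes tested. Of 29 pathway genes tested, 25 were called, 11 higher and 14 lower in the oocyte, against 86.6% of all genes (49.6% higher and 37.0% lower). The median log2 fold change was -2.21 over the 6 core genes tested and 0.68 over all genes. Bcat1 was at 43.9 ± 18.2 CPM in oocyte sets and 790 ± 144 CPM in cumulus (log2 fold change -4.17, standard error 0.31, adjusted p = 1.97e-08). Bckdha (-4.14), Bckdk (-2.31) and Ppm1k (-2.10) were lower too, and Bckdhb was higher in the oocyte by 2.41 (adjusted p = 0.000647). Bcat2 stood at 32.8 ± 6.28 CPM in oocyte sets and 29.5 ± 2.87 CPM in cumulus in this fit, and Dbt at 8.61 ± 0.889 and 9.42 ± 3.13 CPM, both given with no test. In plain CPM per kb both were lower in the oocyte sets, Bcat2 at 6.17 against 10.3 and Dbt at 1.90 against 3.81. Ivd did not pass (0.55, adjusted p = 0.117).

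Outside the core, Acat1 (6.06), Pdhx (4.44), a component of pyruvate dehydrogenase, and Auh (4.23), an enoyl-CoA hydratase of the leucine branch, were highest in the oocyte relative to cumulus on the log2 scale. Slc7a8 (-5.87) and Hsd17b10 (-5.40) were lowest among the genes named here. Luteal markers were abundant in the cumulus libraries, at 16224 to 25036 CPM in Natural, and immune markers varied from 73.1 to 2309 CPM. Cell type and cell number per library cannot be told apart in this comparison.

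Over the 14 group means (7 tables, Natural and IVF) and 18281 genes searched, the genes most like Bcat2 in log2(CPM + 1) were Ttc30b (Pearson's r = 0.925), Gm36283 (0.923) and Sh3tc2 (0.922). Those most like Dbt were Fam151b (0.879), Pdp2 (0.877), a phosphatase of pyruvate dehydrogenase, and Ubl3 (0.870). These are descriptions over means that share tissue and library kind. The 3 genes most like Bcat2 were at 1.99 to 3.43 CPM in Natural and 2.46 to 3.62 CPM in IVF 12-week oocytes, with no drop of the kind seen in Bcat2. These oocyte means were among the 14 searched over. Of the 3 most like Dbt, Pdp2 went from 4.83 CPM in Natural to 19.3 CPM in IVF 12-week oocytes, Fam151b from 0.409 to 1.06 CPM and Ubl3 from 59.3 to 60.8 CPM.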

How the data were processed

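The authors deposited raw counts, 1 whole number per gene and library, with no scaling. Per the labels' processing notes, the submitters used Trimmomatic (0.32), STAR (2.3.0e) and featureCounts (1.5.0) on mm10, while the methods name trimgalore for the low-input libraries. Total counts ran from 2839022 to 43363799 per ovary, 4364495 to 8675189 per PGC library, 839781 to 31126357 per oocyte and 2532824 to 6345249 per cumulus library. Low counts limit Bckdha and Ppm1k in oocytes and Bckdhb in cumulus cells. Each table was fitted with edgeR (4.0.16) in R (4.3.3), with TMM factors, the default expression filter and the quasi-likelihood test, and p values were adjusted over all genes. Ages, germ cells, and oocytes against cumulus were fitted jointly over their groups. The cumulus fit held the 2 series of library names as a covariate. DESeq2 (1.42.0), RLE size factors, other filters and leaving out each sample were alternatives. Figures were drawn with matplotlib (3.10.9). The pipeline was tested on simulated data.

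The core genes and the other lists were chosen with earlier results of these data known. Named beside the core genes are all called genes of the pathway and related lists, or the 3 largest rises and falls where more than 6 were called, and the 3 genes most like Bcat2 and Dbt. One gene that this rule names is not reported here. Animals are not named for the oocytes at 39 weeks. Libraries of 1 group are separate samples by their labels, with up to 2 littermates per litter, so p values measure the spread between these samples. One Natural ovary at 39 weeks is also labelled 40 weeks. Cumulus cells at 39 weeks and 4 cumulus records with an earlier label were not analysed here.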

Additional observations from a re-analysis of the deposited data

Results flagged for a closer look

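Of 112 groups of 4 to 10 samples checked for a sample far from the others, 11 held one, and chance alone gives about 1 in 20. In 12-week oocytes these were Bcat2 in IVF set 126_2 (23.7 CPM, others 1.07 to 2.04), Bcat1 in IVF set 126_4 (54.2 CPM, others 24.2 to 26.0), Bckdha in IVF set 126_3 (2.29 CPM, others 0.757 to 1.16) and Bckdk in Natural set 35_3 (5.62 CPM, others 6.92 to 7.36). In 39-week oocytes they were Bcat1 in Natural oocyte 6 (166 CPM), Bcat2 (254 CPM) and Ivd (27.8 CPM) in Natural oocyte 9, Ppm1k in IVF oocyte 7 (9.57 CPM) and Ivd in IVF oocyte 2 (87.0 CPM). Natural oocytes 6 and 9 are the 2 with low oocyte markers. In ovaries they were Bckdha in IVF replicate 3 at E18.5 (78.5 CPM, others 42.4 to 53.1) and Ppm1k in IVF replicate 1 at 39 weeks (19.4 CPM, others 34.4 to 38.1), the ovary with high oviduct markers.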

How the results depend on the processing

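Of 782 single-gene values under other settings, 728 kept their direction and side of the threshold, 21 lost and 5 gained a call, 18 changed sign and 10 moved by more than the spread; where a sign changed the cause was not tested. DESeq2 called 1 pathway gene in 12-week ovaries, 2 in 39-week ovaries, 1 in cumulus cells, 2 in each of the Natural and IVF 39 against 12-week comparisons and 1 for the IVF effect between those ages. RLE factors gave 2 for Natural 39 against 12 weeks. Without an expression filter the counts were 1 at E18.5, 2 in cumulus and 0 for Natural 39 against 12 weeks. With at least 10 counts in every library, where fewer genes are tested, they were 0 for Natural and 1 for IVF 39 against 12 weeks and 14 for IVF germ cells. With the adult ovaries fitted alone, they were 0 and 1. Over all genes DESeq2 called 1924 at E18.5, 656 at 12 weeks, 1229 at 39 weeks, 46 in oocytes and 30 in cumulus, against 891, 1, 45, 4 and 1 by edgeR. For 39 against 12 weeks it called 4924 genes in Natural and 2017 in IVF, against 4267 and 1220 by edgeR. For the IVF effect between those ages it called 1535 genes, against 534 by edgeR.

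Same-numbered samples did not deviate together throughout (correlations -0.13 to 0.010 at E18.5, -0.36 to 0.25 and -0.0062 to 0.40 in adult ovaries, -0.068 to 0.54 in PGCs, -0.32 to 0.17 in cumulus). Whether they share more than a number cannot be told from so few values. With the replicate block, 0 pathway genes and 3 genes in all were called at E18.5, and the log2 fold change of Bcat2 was 0.039 at E18.5 and 0.22 in PGCs.

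Values near 0 changed sign. For the IVF effect at 12 weeks against E18.5, Bcat2 was at -0.011 (DESeq2), -0.0095 (RLE) and -0.022 (at least 10 counts), and Dbt at 0.020 without a filter. For the effect at 39 against 12 weeks, Dbt was at -0.013, -0.012 and -0.0083 under the same 3 settings, and Ppm1k in IVF 39 against 12 weeks at -0.0099 with at least 10 counts. In oocytes against cumulus, Bcat2 was at -0.021 (DESeq2), -0.022 (RLE) and -0.16 without oocytes of low markers, and Dbt at 0.11 without the cumulus library named 126_2. Without those oocytes, a setting chosen after seeing the data, Ppm1k in Natural germ cells was at 0.029, and the 39-week log2 ratios were 0.75 for Bckdha, 0.095 for Bckdhb and 0.34 for Ppm1k.

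Leaving out 1 sample at a time gave 0 to 4 pathway genes at E18.5, 23 to 28 for Natural and 25 to 28 for IVF 12 weeks against E18.5, 0 to 3 for Natural and 0 to 2 for IVF 39 against 12 weeks, 0 to 1 for the IVF effect between those ages, 19 to 22 and 21 to 22 in Natural and IVF germ cells and 24 to 28 in oocytes against cumulus, and 0 in the other comparisons. Natural 39 against 12 weeks had 0 without E18.5 Natural replicate 2, E18.5 IVF replicates 1, 5 or 6, 12-week Natural replicates 1, 2 or 3, or 39-week Natural replicates 1 or 3, and 3 without 39-week IVF replicate 1.

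The same step changed the sign of these log2 fold changes, given from the lowest to the highest. In E18.5 ovaries it was -0.15 to 0.021 (Bcat2) and -0.15 to 0.13 (Dbt). In 12-week ovaries it was -0.34 to 0.058 (Bcat1) and -0.22 to 0.050 (Bckdhb). In 39-week ovaries it was -0.041 to 0.086 (Bckdha) and -0.17 to 0.0067 (Dbt). In PGCs it was -0.58 to 0.15 (Bcat2), -0.0076 to 0.15 (Bckdhb) and -0.60 to 0.018 (Dbt). In 12-week oocytes it was -0.46 to 0.086 (Bcat1), -0.20 to 0.28 (Bckdha), -0.0030 to 0.25 (Bckdhb) and -0.10 to 0.22 (Bckdk). In cumulus it was -0.015 to 0.19 (Dbt). In Natural 39 against 12 weeks it was -0.026 to 0.13 (Ppm1k). In IVF 12 weeks against E18.5 it was -0.0051 to 0.20 (Ppm1k). In IVF 39 against 12 weeks it was -0.23 to 0.027 (Bcat1), -0.025 to 0.27 (Bckdhb), -0.16 to 0.047 (Dbt) and -0.032 to 0.18 (Ppm1k). In the IVF effect at 12 weeks against E18.5 it was -0.067 to 0.33 (Bcat1), -0.045 to 0.11 (Bcat2) and -0.22 to 0.10 (Dbt). In the IVF effect at 39 against 12 weeks it was -0.089 to 0.12 (Dbt), -0.093 to 0.12 (Ppm1k) and -0.033 to 0.25 (Ivd). In Natural germ cells it was -0.27 to 0.075 (Ppm1k). In oocytes against cumulus it was -0.15 to 0.26 (Bcat2) and -0.44 to 0.11 (Dbt).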
